A study of Mus musculus with 4 samples.

Results

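Lyve1 or Cd163 positive resident macrophages were examined among the monocytes and macrophages of the mouse colon. Members were cells in which the 3 C1q genes made up at least 120 of every 10000 unique molecular identifiers (UMIs, each counted as 1 captured mRNA molecule), with 0 Ly6c2 UMIs, at most 1 AA467197 UMI and at least 2 UMIs of Lyve1 and Cd163 together. Folr2, which the rule also names, was not analysed here, so the sum is that of Lyve1 and Cd163. The rule was met by 108 of 5420 cells. Members were therefore chosen by measured values, and the levels of these genes are a description that supports nothing further.

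The cells came from 4 male wild-type C57/Bl6N mice, 6 to 7 weeks old, of which 2 received chow (chow 9 and chow 11) and 2 a coconut-based high-fat diet (HFD, 60% fat; HFD 1 and HFD 3) for 1 week. Lamina propria cells of each mouse were sorted as live CD45+ Lin- CD11b+ CD24- cells that carried Ly6C or CD64, and were captured in a separate well per mouse, so every comparison rests on cells that passed this gate. The comparison of diets addressed how a short high-fat diet changes colonic macrophages.

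Resident macrophages of the gut wall are renewed from blood monocytes to a large part and lose Ly6C while they gain MHC class II and C1q, the recognition subunits of the classical complement pathway. A minority expresses LYVE1, a hyaluronan receptor also found on lymphatic endothelium, and CD163, the scavenger receptor for haemoglobin-haptoglobin complexes. In many tissues such cells lie along vessels and nerves, and are known for endocytic receptors such as CD206 (Mrc1), for Folr2, and for lower MHC class II than their neighbours. AA467197, also called Nmes1, is a transcript of inflammatory macrophages, and Ly6c2 encodes the Ly6C antigen of monocytes.

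The label was checked against markers outside the rule. Mrc1, the mannose receptor, had a UMI in 97 of the 108 members (89.81%) and in 52.49% of the other C1q-high cells, which met the same limits on C1q, Ly6c2 and AA467197 but held fewer than 2 UMIs of Lyve1 and Cd163. Retnla, a secreted resistin-like protein of alternatively activated macrophages, had a UMI in 28 members (25.93%) and in 8.975% of the others. The summed level of the 7 general macrophage genes that the rule did not use ranged from 2460 to 3735 CPM (counts per 1000000 UMIs of the summed cells) in the members of each mouse and from 2404 to 3070 in the others. In HFD 3 the member sum is 8 UMIs, with Mertk, Cd68, Itgam and Ptprc at 0. Of 12 endothelial markers 3 (Pdpn, Pecam1 and Kdr) were measured, and their sum ranged from 0 to 120.5 CPM in members and from 16.85 to 59.53 in the others. Defining lymphatic genes such as Prox1 and Ccl21a were not analysed here.

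Libraries held 904 to 2002 cells and 3824228 to 7947893 UMIs, and 23 barcodes occurred in more than 1 library, none of them in a member. Members had a median of 2903 UMIs per cell and the other C1q-high cells 4129. The median mitochondrial share was 1.283% to 2.319% in the members of each mouse and 0.8483% to 1.118% in the others, so members were shallower and richer in mitochondrial UMIs. Their part in the results below was not tested. Chow 11 supplied 86 of the 108 members.

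The C1q step of the rule already separated the diets. A C1q share of at least 120 was found in 72.57% of the cells of chow 9, 82.62% of chow 11, 25.78% of HFD 1 and 20.35% of HFD 3. After all steps, 16 of 904 cells remained in chow 9 (1.77%, exact 95% Clopper-Pearson interval 1.015% to 2.858%) and 86 of 2002 in chow 11 (4.296%, 3.45% to 5.278%). In the HFD mice, 4 of 966 cells remained in HFD 1 (0.4141%, 0.1129% to 1.057%) and 2 of 1548 in HFD 3 (0.1292%, 0.01565% to 0.4659%). The intervals cover counting error only. Both chow mice thus lay above both HFD mice, but C1q and Ly6c2 differ with the diet in the sorted cells, and no exact test of 2 mice against 2 can pass a usual threshold, so these shares are a description.

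**Figure D1:**
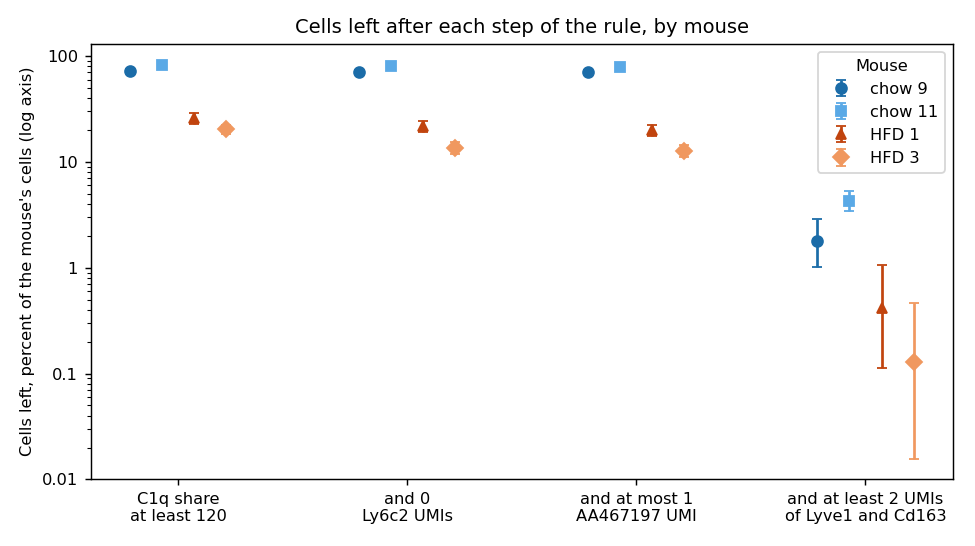
Share of each mouse's cells left after each step of the rule (percent of the cells of that mouse, log axis; bars are exact 95% intervals). The chow mice lay at 72.57% and 82.62% and the HFD mice at 25.78% and 20.35% after the C1q step, and at 1.77%, 4.296%, 0.4141% and 0.1292% after the last step.

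Taken as a share of C1q-high cells, members were 2.512% (interval 1.442% to 4.047%) in chow 9, 5.409% (4.349% to 6.637%) in chow 11, 2.083% in HFD 1 and 1.02% in HFD 3. On this denominator HFD 1 lay within the interval of chow 9, and the value of chow 11 was above those of the other 3 mice. Of all cells with at least 2 UMIs of Lyve1 and Cd163, whatever their C1q, there were 22, 93, 4 and 3 in chow 9, chow 11, HFD 1 and HFD 3. The C1q limit removed 6 of those in chow 9 and 4 in chow 11, the Ly6c2 limit removed 3 in chow 11 and 1 in HFD 3, and the AA467197 limit removed none. Cells that held 2 or more Ly6c2 UMIs in the same mice are given for comparison. Of these, 0 of 52, 3 of 82, 0 of 323 and 0 of 638 held at least 2 UMIs of Lyve1 and Cd163. The share in chow 11 was 3.659% (interval 0.7609% to 10.32%), and this interval covers the 5.409% of members among its C1q-high cells. Whether these UMIs came from free RNA or from mixed droplets was not tested. A Retnla UMI was found in 2 of 52, 7 of 82, 21 of 323 and 6 of 638 of these Ly6c2 cells and an Mrc1 UMI in 3, 14, 12 and 20 of them. Their median depth was 3298, 3106.5, 4419 and 3348.5 UMIs, beside 3443.5, 2903, 1827 and 1626 in members.

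Members held a median of 2 Lyve1 UMIs (highest 16) and 1 Cd163 UMI (highest 9). Lyve1 (chromosome 7, GRCm38 110850607 to 110863239, minus strand) reached 759.4, 768.2, 723 and 1845 CPM in the members of chow 9, chow 11, HFD 1 and HFD 3. Cd163 (chromosome 6, 124304656 to 124330527, plus strand) stood at 399, 443.1, 1446 and 0. Both genes were found in 37 members, Lyve1 alone in 40 and Cd163 alone in 31. Exactly 2 UMIs were held by 37 members and 3 or more by 71. Just outside the rule, 91 C1q-high cells held 1 UMI and 2416 held 0. Along this scale in the chow mice, Retnla stood at 52.04 CPM in cells with 0, 68.74 with 1, 386.4 with 2 and 2759 with 3 or more. Mrc1 stood at 306, 624, 1069 and 1010 over the same steps, and Cbr2 at 6.689, 74.03, 242.6 and 214.2. At the C1q limit, 5 members had a share of 120 to 130, and 3 cells with a share of 110 to 120 met every other limit. The 10 chow cells with 2 or more UMIs but a C1q share under 120 held Retnla at 4114 CPM.

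Members were then compared with the other C1q-high cells of the same mice on UMIs summed per mouse and class, with the mouse as a block and the rule genes left out (edgeR quasi-likelihood test, FDR 1%). Among the genes called higher in members were Retnla, Fgfr1, Ednrb, C4b, Cbr2 and F13a1, and among those called lower were 4 MHC class II genes. Of 5721 genes tested, 58 were called, 50 higher in members (0.874% of genes) and 8 lower (0.14%). A gene was tested when 5% or more of the members or of the others held a UMI of it. The 672 genes that passed this filter through the members only, which favours genes that are high there, held 36 of the 50 genes called higher, among them Ednrb, Fgfr1, C4b, Cbr2 and F13a1. Of the 5049 genes detected in 5% or more of the others, 14 (0.277%) were called higher and 8 lower. Irrespective of the test, 204 genes (3.57%) were higher in members in all 4 mice and 785 (13.7%) were lower in all 4, and a gene with 0 UMIs in the small HFD sums counts as lower there. The HFD members summed to 8299 and 3252 UMIs, so that 0 UMIs there allow levels of up to 361.5 and 922.5 CPM. A single UMI there stands for 120.5 CPM in HFD 1 and 307.5 CPM in HFD 3. For a gene that is low in the others, 1 molecule can thus place these members above every sum of the others. With the chow mice only, a comparison added after these sums had been seen, 189 of 5724 genes were called, 80 higher (1.4%) and 109 lower (1.9%). Of the 5050 genes in this fit that were detected in 5% or more of the others, 56 (1.11%) were called higher. Of the 58 genes, 45 were called in both, all with the same sign. The chow sums are part of the comparison of 4 mice and hold most of its member cells, so this overlap is no independent check. The fit of the chow mice has 1 residual degree of freedom and that of 4 mice has 3. Both take the spread as shared by all genes, so the p-values of both rest on that assumption. They do not measure how much a single gene varies between mice. The median of all genes tested lay at -0.20 (log2) in the comparison of 4 mice and at -0.04 in the chow mice, and folds are to be read against these values.

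Retnla (chromosome 16, GRCm38 48842551 to 48844461, plus strand) showed the largest fold among the genes called over 4 mice. In the chow mice alone its fold was 5.17 (SE 0.19), below those of genes such as Fgfr1 (6.06), C4b (5.235) and the water channel Aqp1 (6.42). Its level in members was 1828 CPM in chow 9, 2148 in chow 11, 27835 in HFD 1 and 3075 in HFD 3, against 26.72, 64.59, 68.97 and 1.123 in the other C1q-high cells. The lowest member sum was above the highest of the others, and the log2 fold change was 6.36 (SE 0.76, edgeR adjusted p = 8.31e-14). Within the members, however, Retnla was carried by few cells. The 10 highest members held 87.7% of its 1057 UMIs, the highest alone 286 UMIs, and the median member held 0. Retnla, Ednrb, Cbr2, F13a1, Fgfr1 and C4b were the 6 of 28 called genes followed here that passed the test under every alternative tried. Of these 6, only Retnla was detected in 5% or more of the others. The rest passed the detection filter through the members only. Without chow 11, which supplied most members, 12 genes were called in all, 11 higher and 1 lower.

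Because Retnla had the highest fold over 4 mice, sequence around its start is shown from the RefSeq promoter table (GRCm38.p6, chr16:48842359-48842567, plus strand, 5′ to 3′). Capitals mark GTCAGCA, the reverse complement of TGCTGAC, a half-site bound by MAF family factors. The 2 annotations differ in the start of the gene: RefSeq places it at 48842609, which is 58 bases after the start given above from GENCODE. The marked letters lie 48 to 42 bases before the RefSeq start and 10 to 16 bases after the GENCODE start, so their place relative to the start is not settled by these annotations.
Retnla: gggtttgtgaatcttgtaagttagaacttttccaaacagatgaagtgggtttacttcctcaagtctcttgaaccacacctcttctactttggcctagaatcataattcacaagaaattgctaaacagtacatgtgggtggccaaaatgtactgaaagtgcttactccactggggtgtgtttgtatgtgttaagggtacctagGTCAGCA
Both strands of the 300-base windows (250 before to 50 after the RefSeq start) were searched. TGCTGAC was found in 3 of the 35 genes called higher that had a window (Cbr2, Pmp22 and Retnla) in 186 (4.08%) of the 4559 genes tested that had one, and in 4.67% of all 32851 windows. The interferon-related letters TTCNNNGAA were found in 4 of the 35 (8.36% of genes tested, 8.3% of all windows) and TTCNNTTTC in 6 (9.52% and 8.56%), and none of the 3 motifs in the 4 genes called lower that had a window. These matches are descriptions of letters and not of binding.

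Of the genes on a list of the Lyve1 macrophage programme, compiled with earlier results of these data known, 26 of 36 could be tested. Of these 26, 7 passed the detection filter through the members only, and 6 of them were called higher (F13a1, Cbr2, Ccl24, Ednrb, Wwp1 and Colec12). Of the other 19, which were detected in 5% or more of the others, 4 were called higher over 4 mice (Retnla, Igf1, Clec10a and Cd36) and 0 lower, against 0.277% higher among all genes detected in the others. Their median log2 fold change was 1.01, beside -0.29 for all such genes. In the chow mice 11 of the 19 were called higher, against 1.11%, and 0 lower. The programme holds endocytic receptors, secreted factors and enzymes, which are taken in turn below.

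Among receptors, Cd36, a scavenger receptor that takes up oxidised lipids and fatty acids, was higher in the members of all 4 mice. Its levels in members were 514.8, 411.2, 1687 and 307.5 CPM in chow 9, chow 11, HFD 1 and HFD 3, against 104.8, 70.61, 59.31 and 39.32 in the others, and the groups did not overlap (log2 fold change 2.36, SE 0.53, edgeR adjusted p = 0.00141). The member level of Cd36 in HFD 3 is 1 UMI. Clec10a, a galactose-binding C-type lectin, stood at 115.8, 229.5, 361.5 and 922.5 against 25.68, 28.02, 49.66 and 43.82 (2.30, SE 0.48, edgeR adjusted p = 0.000336). Neither Cd36 nor Clec10a passed the test without chow 9 (2.50 and 2.36) or without chow 11 (2.36 and 1.92). Cd36 did not pass either at a C1q share of at least 160, with at least 3 UMIs, thinned to 2000 UMIs or without the detection filter. Clec10a did not pass without the cells holding UMIs of other cell types. Both signs held in each of these settings. Ednrb, a receptor for endothelins, stood at 205.9, 98.81, 1084 and 0 against 2.082, 3.958, 8.276 and 0. It rose by 5.17 (SE 0.48), and only HFD 3, with 0 UMIs in both classes, did not share the direction. Colec12, a scavenger receptor of the collectin family, rose by 3.97 (SE 0.56) from 19 UMIs in members.

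Mrc1 did not pass the test over 4 mice. Its levels in members were 978.2, 1039, 2048 and 0 CPM, against 272.8, 340.2, 151.7 and 97.74, and the 0 of HFD 3 stands under the limit of 922.5 that 0 UMIs allow (log2 fold change 1.42, edgeR adjusted p = 0.329). In the chow mice alone it was called higher, at 1.41 (SE 0.18). Stab1, a scavenger receptor of resident macrophages, and Dab2, a clathrin adaptor of endocytosis, were likewise called only in the chow mice, at 1.34 and 0.83. Of the 15 genes tested on a wider list of scavenger and endocytic genes, 3 were called higher over 4 mice (Cd36, Colec12 and Clec10a; 0.874% of all genes), 6 in the chow mice (1.4%) and none lower in either. Of these, Colec12 passed the detection filter through the members only. Vsig4, a complement receptor, had 22 UMIs in the members of chow 11 and 0 in those of the other 3 mice, and was filtered out of the test. Timd4, a phosphatidylserine receptor of long-lived macrophages, stood at 25.74, 28.69, 241 and 0 in members against 14.92, 16.15, 4.138 and 5.617, with an adjusted p in edgeR of 0.58. Gas6, Marco and Fcna were not analysed here.

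**Figure D2:**
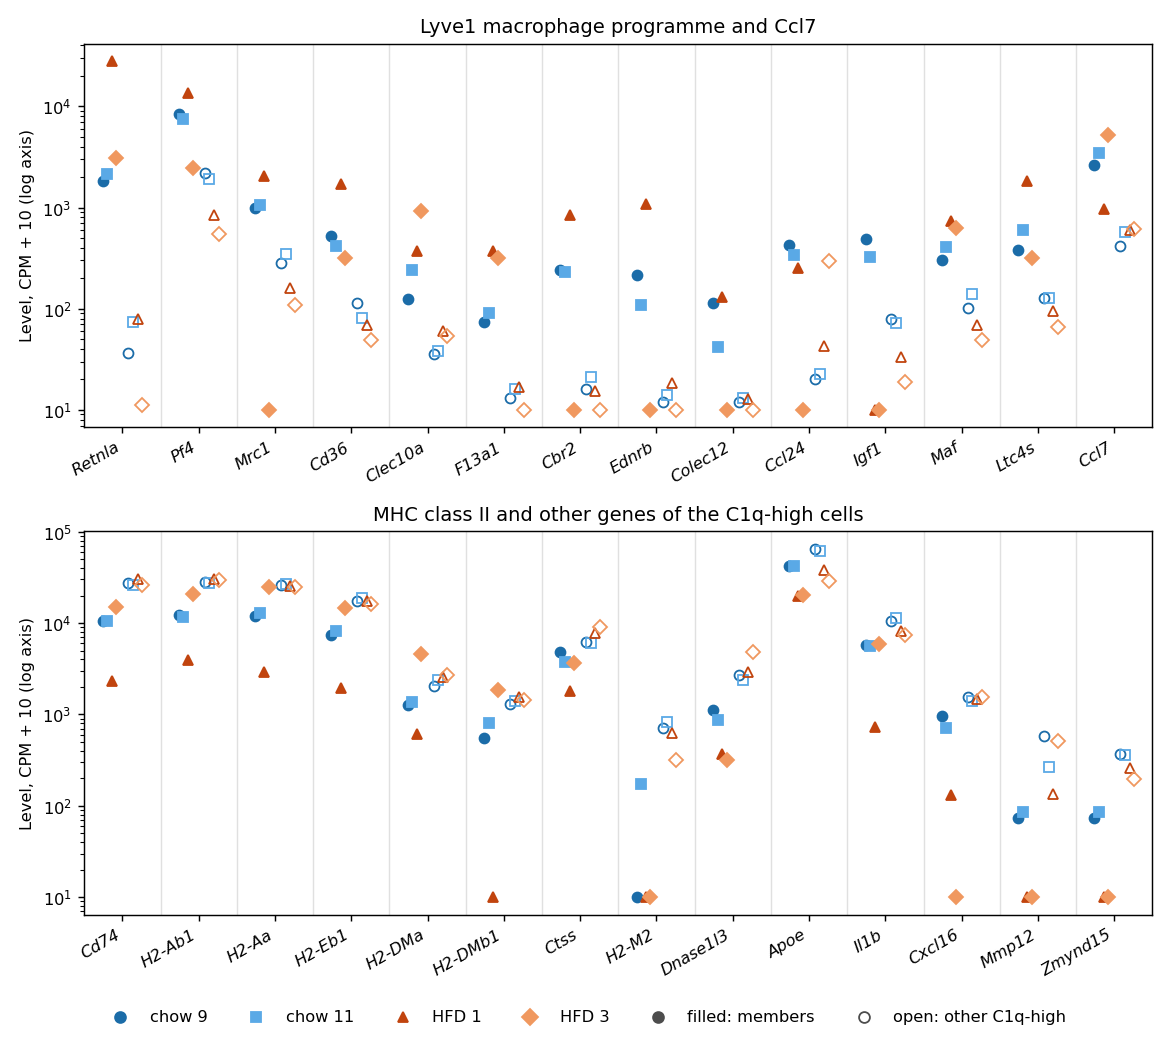
Level of named genes by mouse in members (filled) and the other C1q-high cells (open), in CPM plus 10 on a log axis, where 10 therefore means 0 UMIs. Retnla in members lay between 1828 and 27835, above every value of the others, while Cd74 in members lay between 2289 and 15068, below every value of the others.

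Among enzymes and secreted proteins, Cbr2, a carbonyl reductase, stood at 231.7, 219.9, 843.5 and 0 CPM in members against 6.246, 10.92, 5.517 and 0, and rose by 4.60 (SE 0.50, edgeR adjusted p = 1.62e-16). F13a1, the A subunit of coagulation factor XIII, was higher in all 4 mice, at 64.35, 79.69, 361.5 and 307.5 against 3.123, 6.016, 6.897 and 0 (3.89, SE 0.54, edgeR adjusted p = 8.01e-10). These values rest on 34 F13a1 UMIs in 108 members, with 3 in HFD 1 and 1 in HFD 3. Pf4, a CXC chemokine known as platelet factor 4, had a UMI in every member and in 82.41% of the others. It stood at 8456, 7561, 13616 and 2460 in members against 2197, 1920, 829 and 532.5, higher in all 4 mice, but did not pass the test over 4 mice (1.64, edgeR adjusted p = 0.18) and was called in the chow mice (1.65, SE 0.13). Ltc4s, the synthase of leukotriene C4, showed the same pattern, with 1.95 and an adjusted p in edgeR of 0.0309 over 4 mice and 1.79 in the chow mice, where it was called. Igf1, an insulin-like growth factor, was called higher, at 476.2 and 312.4 in the members of the chow mice against 69.75 and 62.54, but had 0 UMIs in the HFD members (2.01, SE 0.52, edgeR adjusted p = 0.00984).

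By the size of the fold, 4 genes called higher in all 4 mice belonged to no programme list. Chst7, a sulphotransferase, rose by 2.79 (SE 0.57) from 15 UMIs in members, Sgms1, a sphingomyelin synthase, by 2.18 (SE 0.47), Serpinb6a, a serine protease inhibitor, by 2.14 (SE 0.48) and Nupr1, a stress-induced chromatin protein, by 1.93 (SE 0.47). Serpinb6a stood at 283.2, 267.7, 723 and 615 CPM in members against 65.24, 62.85, 34.48 and 8.988, and the groups did not overlap. The members of HFD 1 and HFD 3 held only 6 and 2 UMIs of Serpinb6a, 4 and 1 of Chst7, 2 and 4 of Sgms1 and 1 and 1 of Nupr1. Chst7 passed the detection filter through the members only. It was not called in the chow mice, nor without chow 9, HFD 1 or HFD 3, nor at a C1q share of at least 160 or with at least 1 UMI. Sgms1, Serpinb6a and Nupr1 did not pass the test without chow 9, without chow 11 or with at least 3 UMIs. Sgms1 and Serpinb6a did not pass at a C1q share of at least 160, nor Serpinb6a and Nupr1 without the detection filter. Sgms1 also failed without HFD 3 and with cells thinned to 2000 UMIs. None of the 4 passed without the cells holding UMIs of other cell types.

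Further genes with large folds lay at 0 in the members of HFD 3 and are named here after their values were seen. Fgfr1, a fibroblast growth factor receptor, stood at 51.48, 70.12, 482 and 0 CPM against 0.347, 0.9499, 2.759 and 0 (log2 fold change 6.00, SE 0.60), and rests on 30 UMIs in 17 members. The complement gene C4b rose by 5.03 (SE 0.56). S100a4, a calcium-binding protein, and Mt2, a metallothionein, rose by 2.28 and 2.61. Fgfr1, C4b and Mt2 passed the detection filter through the members only. Because Fgfr1 and Ednrb are also genes of stromal cells, the stromal markers are given beside them. The sum of 8 fibroblast and muscle markers was 51.48, 54.19, 0 and 0 CPM in members and 23.25, 38.63, 11.03 and 16.85 in the others, with Lum and Des at 0 in members. Its part in these differences was not tested.

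Chemokines split by their direction in the chow mice. Ccl24, an eotaxin that attracts eosinophils, was called over 4 mice. It stood at 411.9, 331.5, 241 and 0 CPM in members against 10.06, 12.51, 33.1 and 286.5 in the others (log2 fold change 3.22, SE 0.57, edgeR adjusted p = 9.38e-06), and was higher in members in all mice but HFD 3. In the chow mice 6 of 14 chemokines tested were called higher (1.4% of all genes), including the CCR2 ligand Ccl7, Ccl9 and, through the members only, Ccl24, and 4 lower (Ccl3, Ccl4, Cxcl1 and Cxcl16; 1.9%). Ccl7 stood at 2613, 3414, 964 and 5228 against 410.9, 558.5, 590.4 and 605.6 and was higher in all 4 mice. Over 4 mice it reached a log2 fold change of 1.45 with an adjusted p in edgeR of 0.333, and in the chow mice 2.33 (SE 0.15), where it was called. Like Retnla, it was unevenly spread, with 60.97% of its 1299 UMIs in the 10 highest members. The same share was 76.67% for Fgfr1, 67.86% for Ednrb and 66.67% for Ccl24. It was lower for Cd74 (48.57%), H2-Ab1 (45.78%), Mrc1 (26.73%) and Pf4 (25.59%). Cxcl16, a membrane-bound chemokine, stood at 939.6, 698, 120.5 and 0 against 1524, 1407, 1454 and 1553, lower in all 4 mice, and was called in the chow mice (-1.18) but not over 4 mice (edgeR adjusted p = 0.0563). Ccl3, an inflammatory chemokine, fell by 1.36 in the chow mice and was not called over 4 mice (-2.50, edgeR adjusted p = 0.0223).

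Of 15 cytokines and growth factors tested, Il6 and Igf1 were called higher over 4 mice, against 0.874% of all genes, and none lower, and Il6 passed the detection filter through the members only. Il6 rose by 3.06 (SE 0.61, edgeR adjusted p = 0.000138), on 14 UMIs in the members of the chow mice and 0 in those of the HFD mice. Il1b, the inflammatory cytokine interleukin-1β, was lower in members of all 4 mice, at 5792, 5642, 723 and 5843 CPM against 10423, 11205, 8100 and 7415, and was called in the chow mice alone (-1.23, SE 0.12). Osm, oncostatin M, was called lower in the chow mice too (-1.07). Il10, the anti-inflammatory cytokine of gut macrophages, stood at 296, 363.4, 0 and 1538 against 126.3, 274.4, 139.3 and 85.38.

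Of the 8 genes called lower in members, 4 were MHC class II genes. Cd74, the invariant chain that guides class II molecules to the loading compartment, stood at 10477, 10557, 2289 and 15068 CPM in the members of chow 9, chow 11, HFD 1 and HFD 3, against 27627, 25939, 30332 and 26286 in the others. Every member sum was below every sum of the others (log2 fold change -2.65, SE 0.54, edgeR adjusted p = 0.000229). H2-Ab1, a class II β chain, stood at 12343, 11762, 3976 and 20603 against 28061, 27719, 30587 and 29400 (-2.37, SE 0.52, edgeR adjusted p = 0.00104), again without overlap. H2-Eb1 fell by 2.30 (SE 0.55) and H2-Aa fell by 2.19 (SE 0.53). On this list 4 of 14 genes tested were called lower and 0 higher, against 0.14% lower among all genes, with a median of -1.44. In the chow mice 7 of 14 were called lower, against 1.9% of all genes, H2-DMa, H2-DMb1 and the cathepsin Ctss in addition, and the folds were smaller (Cd74 -1.66, SE 0.12; H2-Ab1 -1.52, SE 0.12). With library totals in place of TMM scaling, which moves the median of all genes from -0.20 to 0.25, Cd74 stood at -1.93 and H2-Ab1 at -1.66 relative to it, and all 4 genes passed the test too. These calls depend on the cells and mice entered: none of the 4 passed when HFD 1 was left out (Cd74 -1.96, H2-Ab1 -1.78), when members had to hold 3 UMIs (-2.69 and -2.63) or when cells were thinned to 2000 UMIs (-3.42 and -3.15), and H2-Ab1, H2-Eb1 and H2-Aa did not pass when any single mouse was left out, whereas the sign held in each of these settings.

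The other 4 genes called lower were H2-M2, a non-classical MHC class I gene, Mmp12, the macrophage elastase, Dnase1l3, a secreted DNase, and Zmynd15, a zinc finger protein. H2-M2 had 51 UMIs in the members of chow 11 (162.6 CPM) and 0 in those of the other 3 mice, against 703.1, 811.1, 612.4 and 306.7 in the others (log2 fold change -4.05, SE 0.83). The 0 of chow 9 allows up to 38.61 CPM, whereas that of HFD 3 allows 922.5 and so shows no difference by itself. Dnase1l3 stood at 1107, 860.6, 361.5 and 307.5 against 2658, 2386, 2905 and 4770, without overlap (-2.82, SE 0.68). Mmp12 fell by 2.86 (SE 0.72) and Zmynd15 fell by 2.80 (SE 0.69). None of these 4 genes passed the test without chow 9, without chow 11 or with cells thinned to 2000 UMIs. Dnase1l3 did not pass without HFD 1 either, nor H2-M2 with DESeq2, nor Mmp12 at a C1q share of at least 80 or 160. The sign held in each of these settings.

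Of 19 genes typical of mucosal resident macrophages, 1 (Dnase1l3) was called lower over 4 mice, against 0.14% of all genes, and none higher, with a median of -1.20, and 11 were called lower in the chow mice, against 1.9%. Apoe, the lipid carrier of macrophages, stood at 41675, 42371, 19520 and 20295 CPM in members against 64942, 61433, 37882 and 28685, lower in all 4 mice (-1.61, edgeR adjusted p = 0.0309; called in the chow mice at -0.90). Tmem119 and Ms4a7 were called lower in the chow mice, at -2.21 and -1.08. Cx3cr1, the fractalkine receptor, stood at 411.9, 465.4, 120.5 and 0 against 510.5, 535, 353.1 and 251.7, and Cd4, a marker of long-lived gut macrophages, at 103, 41.44, 0 and 0 against 110.4, 99.11, 40 and 33.7. Neither passed the test in either comparison. Csf1r, the receptor for the survival factor CSF1, stood at 1171, 1265, 2289 and 922.5 against 876.6, 891.6, 728.3 and 673.

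**Figure D3:**
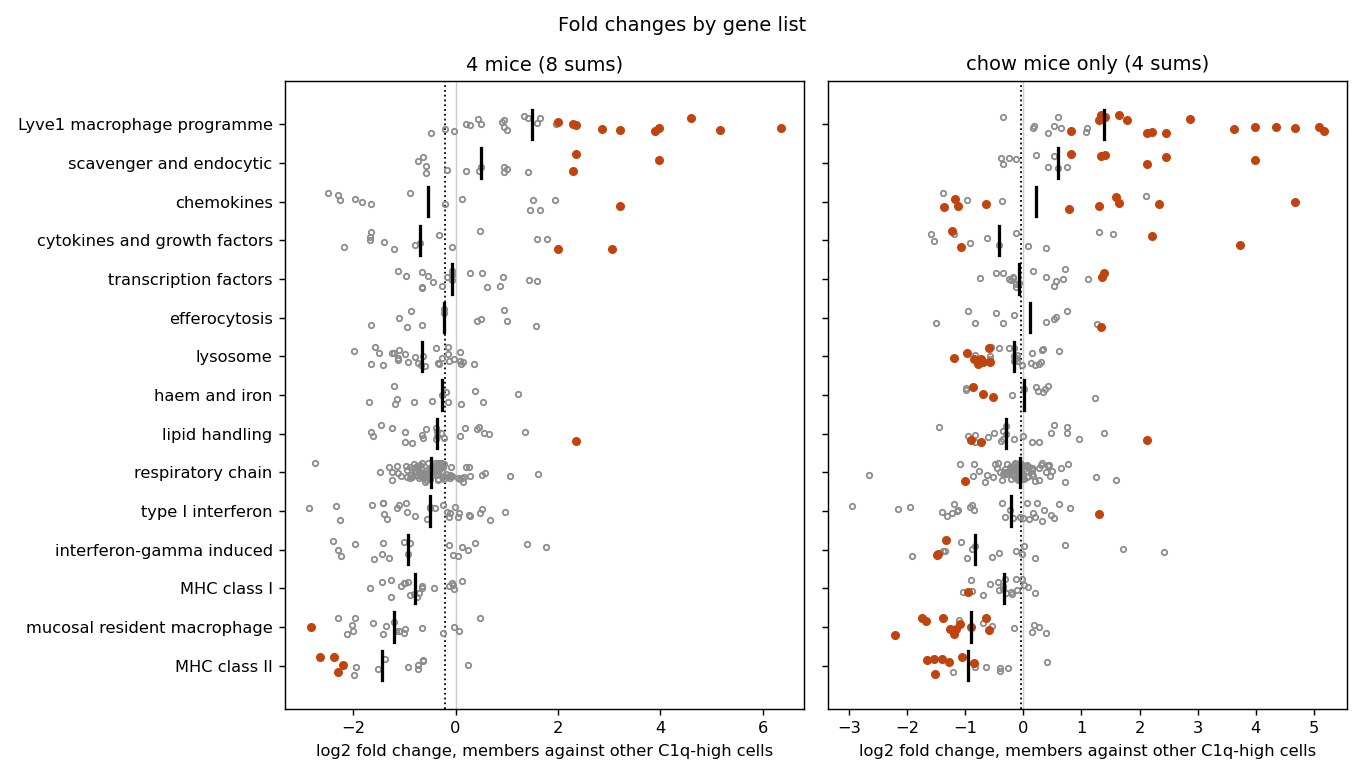
Log2 fold change of each tested gene, members against the other C1q-high cells, by gene list, over 4 mice (left) and in the chow mice only (right). Filled points passed FDR 1%, the bar is the median of the list and the dotted line the median of all genes (-0.20 and -0.04). MHC class II had the lowest median of the lists shown over 4 mice (-1.44). The bar of the Lyve1 macrophage programme includes 7 genes that passed the detection filter through the members only.

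Maf, which drives the programme of resident macrophages, stood at 296, 401.6, 723 and 615 CPM in members against 91.27, 130, 59.31 and 39.32, without overlap, and was called in the chow mice (log2 fold change 1.36, SE 0.25) but not over 4 mice (1.59, edgeR adjusted p = 0.0916). Its member levels in HFD 1 and HFD 3 rest on 6 and 2 UMIs. Klf2 was called in the chow mice at 1.40. In all, 0 of 19 factors tested were called over 4 mice, against 0.874% higher and 0.14% lower among all genes, and 2 were called higher in the chow mice, against 1.4%.

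The lists for interferon-gamma (19 genes tested), type I interferon (30), lysosome (30), efferocytosis (12), haem and iron (13), immediate early and stress (18), respiratory chain (90), mitochondrially encoded (12), MHC class I (20) and proliferation (3) genes had 0 genes called over 4 mice in edgeR. Across all genes of that comparison, 679 had an unadjusted p under 0.05, and with DESeq2 49 genes were called, 36 higher and 13 lower. In the chow mice, 8 of 30 lysosomal genes were called lower, against 1.9% of all genes, with a list median of -0.16 beside -0.04 for all genes, and 3 of 19 interferon-gamma induced genes were called lower, namely Gbp2b (-1.49), Gbp3 (-1.33) and AW112010 (-1.46). Ifitm3, an interferon-induced membrane protein, was called higher in the chow mice at 1.31, the 1 gene so called of 30 on the type I interferon list, beside 1.4% of all genes. Also called lower in the chow mice were the ferritin genes Fth1 and Ftl1 and the regulator Nfe2l2, the immediate early gene Fos and the heat shock gene Hspa1a, the chaperone Pdia3 of class I loading, and Ndufa6 of the respiratory chain. Of 24 lipid handling genes, Cd36 was called higher in both comparisons (0.874% and 1.4% of all genes), and Apoe and Npc2 lower in the chow mice (1.9%).

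Markers of other cells were summed in both classes. The 9 monocyte markers outside the rule summed to 154.4 to 1230 CPM in members and 319.3 to 1650 in the others, with Vcan among those at 0 in members. The 4 B and plasma cell markers measured summed to 0 to 408 in members and 155 to 447.9 in the others, and were found in 61.11% of members and 64.78% of the others. Epithelial markers summed to 0 to 12.87 in members against 22.56 to 56.84, with Epcam, Krt8 and Krt19 at 0 in members. T and NK cell markers summed to 0 to 77.22 against 51.04 to 89.88. Dendritic cell markers (9 of 9 measured) summed to 115.8, 111.6, 241 and 307.5 in the members of chow 9, chow 11, HFD 1 and HFD 3. The others stood at 72.88, 81.85, 129.7 and 124.7, so the sum was higher in members in all 4 mice. The HFD member sums were 2 and 1 UMIs, and Flt3, Dpp4 and Itgae were at 0 in members. Neutrophil markers (3 of 8) summed to 115.8, 66.94, 120.5 and 0 against 29.15, 33.41, 26.21 and 22.47, with S100a8 at 0 in members. Mast cell and eosinophil markers (2 of 10) summed to 0 to 6.375 against 3.817 to 5.617. The part of these lists in the results was not tested. After leaving out all cells that held a UMI of Igha, Jchain, Krt8, Epcam, Cd3e or Cd79a, or over 10000 UMIs, 26 genes were called, 14 higher and 12 lower, and Retnla, Ednrb, Cbr2, F13a1, Cd74 and H2-Ab1 were among those still called.

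Levels within the chow members are given by the rule gene they held, without a test because both genes are part of the rule. Members with both genes, Lyve1 alone and Cd163 alone were 7, 4 and 5 cells in chow 9 and 28, 34 and 24 in chow 11. The values of chow 9 rest on few cells: Retnla had a UMI in 2, 1 and 1 of them, and Ccl7 in 5, 2 and 1. Ccl7 stood at 6205 and 4114 CPM in the members of chow 9 and chow 11 that held both genes, at 2005 and 4843 in those with Lyve1 alone, and at 337.7 and 451.3 in those with Cd163 alone. The last values stand beside the 410.9 and 558.5 of the other C1q-high cells. Retnla was likewise lowest in the members with Cd163 alone, at 4302 and 3873, then 1623 and 1793, and then at 122.8 and 451.3. Cx3cr1 was highest in the members with Cd163 alone, at 289.6 and 500.4, 286.5 and 189.1, and 583.3 and 819.5. H2-Ab1 stood at 8893 and 9859 in members with both genes, 13321 and 9513 with Lyve1 alone, and 14274 and 17448 with Cd163 alone, all below the 28061 and 27719 of the other C1q-high cells. Mrc1 and Pf4 were above the other C1q-high cells in all of these groups and in both mice.

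**Figure D4:**
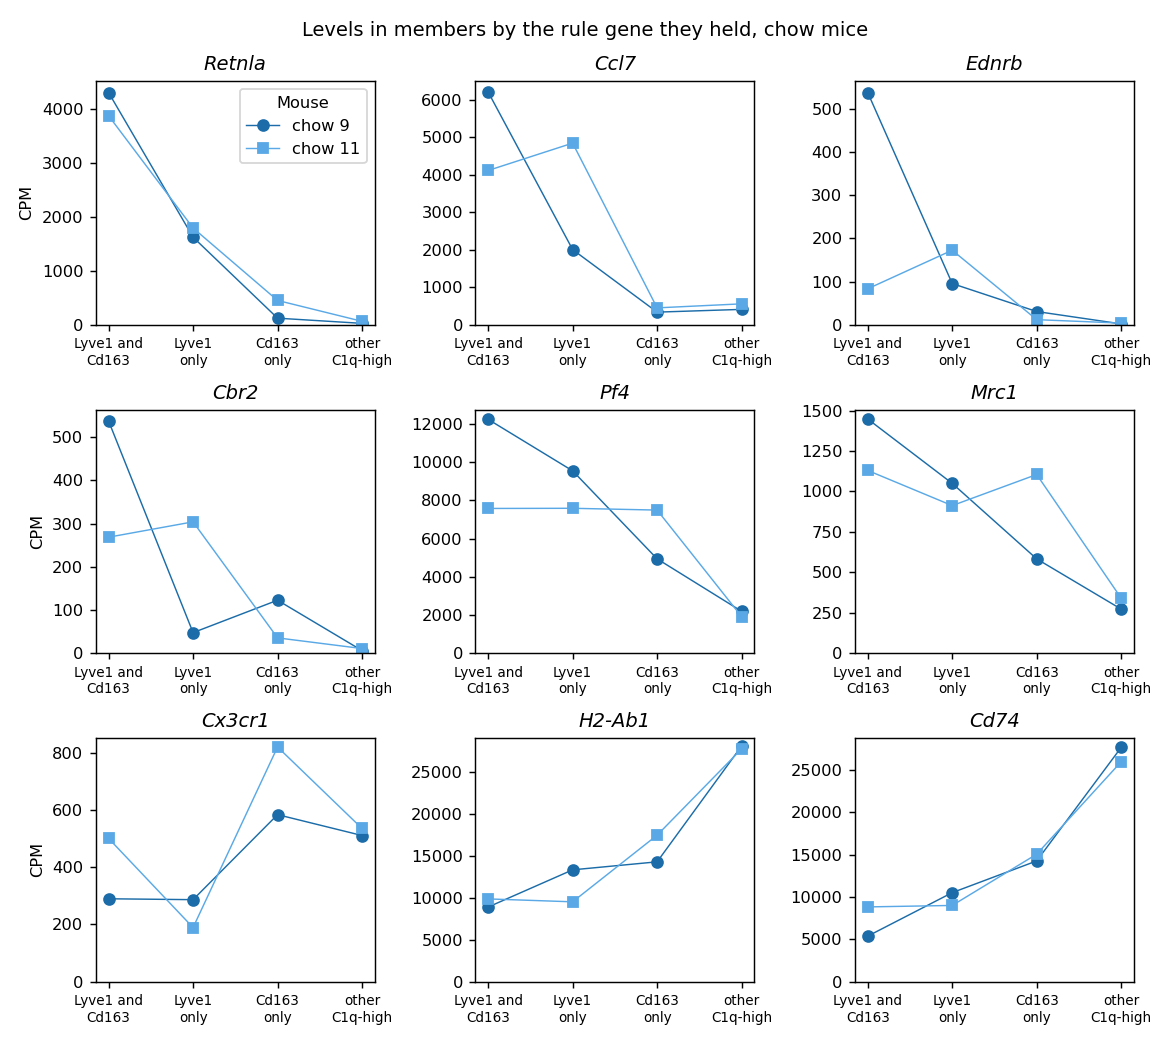
Level of 9 genes in CPM in members that held both Lyve1 and Cd163, Lyve1 alone or Cd163 alone, and in the other C1q-high cells, for chow 9 (circles) and chow 11 (squares); lines join the values of a mouse. Retnla and Ccl7 were highest in members with Lyve1, and members with Cd163 alone lay between the other members and the other C1q-high cells for Cd74.

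Members with a Retnla UMI were 4 in chow 9 and 19 in chow 11. Their H2-Ab1 level was 4394 and 8807 CPM, against 13707 and 12594 in the members without one, and their Cd74 level 3428 and 8691 against 11686 and 11082. Clec10a stood at 439.4 and 435.3 against 60.32 and 171.6, and Ccl24 at 1055 and 914 against 301.6 and 167.5. Members without a Retnla UMI thus still had less H2-Ab1 and Cd74 than the other C1q-high cells of their mouse. The split is by a measured value in few cells and was not tested.

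The effect of the diet within the members was not tested, because the HFD mice held 4 and 2 members, under the 20 cells a mouse set as the minimum. The 6 cells are therefore given singly. In HFD 1, the 4 members held 1910, 1700, 2945 and 1744 UMIs, with Retnla at 0, 28, 201 and 2 UMIs, Pf4 at 31, 19, 62 and 1, H2-Ab1 at 10, 4, 3 and 16, and Cd74 at 1, 0, 2 and 16. A single cell thus held 201 of the 231 Retnla UMIs of the 4 members of that mouse, and 2 of the other 3 held Retnla too. In HFD 3, the 2 members held 1758 and 1494 UMIs, with Retnla at 1 and 9, Pf4 at 4 and 4, H2-Ab1 at 30 and 37, and Cd74 at 31 and 18. Gbp2, an interferon-induced GTPase, had 0, 0, 1 and 1 UMIs in the members of HFD 1 and 11 and 3 in those of HFD 3, and Ifitm3 had 4, 12, 11 and 6, then 14 and 10.

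For the other C1q-high cells, with 188 or more cells in each mouse, the diet could be tested, and their values are set beside the members from the same mice. Of 5049 genes, 76 (1.51%) were called, 49 higher and 27 lower on HFD. Of the 19 genes of the Lyve1 programme tested there, 3 (Pf4, Mrc1 and Igf1) were called lower on HFD and 1 (Ccl8) higher, with a list median of -0.82 beside -0.02 for all genes. Pf4 stood at 2197 and 1920 CPM on chow and 829 and 532.5 on HFD (log2 fold change -1.68, edgeR adjusted p = 0.00149), Mrc1 at 272.8 and 340.2 against 151.7 and 97.74 (-1.39, edgeR adjusted p = 0.00692) and Igf1 at 69.75 and 62.54 against 23.45 and 8.988 (-2.15, edgeR adjusted p = 0.00692). Ccl8, a chemokine for monocytes, stood at 93.35 and 144.4 against 435.9 and 1804 (3.13, edgeR adjusted p = 0.00531), beside 244.5, 465.4, 120.5 and 1230 in the members of chow 9, chow 11, HFD 1 and HFD 3. Gbp2 stood at 23.25 and 28.97 on chow and 297.9 and 337 on HFD (3.50, edgeR adjusted p = 1.13e-05), beside 0, 31.87, 241 and 4305 in the members. Whether the diet acts differently in the members was not tested.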

How the data were processed

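The authors aligned droplet-based single-cell libraries with kallisto 0.46.0 and bustools 0.39.2, filtered cells and low-abundance genes, removed cells that SingleR did not call monocytes or macrophages, and deposited raw UMI counts for 11820 genes in 5420 cells. Each mouse was 1 library and is the replicate. No per-sample column was left unmapped. Gene positions are those of GENCODE M21 on GRCm38, matched for 11819 genes. No doublet caller was run here; leaving out cells with a UMI of Igha, Jchain, Krt8, Epcam, Cd3e or Cd79a, or with over 10000 UMIs, was an alternative. UMIs of members and of the other C1q-high cells were summed per mouse. Genes with more than 1 CPM in 4 or more of 8 sums that were detected in 5% or more of the members or of the other C1q-high cells were tested with edgeR 4.0.16 (quasi-likelihood, TMM, mouse as a block, Benjamini-Hochberg, FDR 1%) in R 4.3.3. The 7 rule genes that were measured stayed out of the test and of library sizes. In this fit the spread was estimated as shared by all genes. Tested on simulated data, it recovered few of the changed genes, so that a gene not called is not shown to be equal. A level of 0 is given with the level that 3 UMIs would have in that sum. DESeq2 1.42.0, other scalings, filters, rule limits, thinning and leaving out each mouse were alternatives; the fit of chow mice only was added after the data were seen. The diet was tested in the other C1q-high cells with the same tool and FDR but no block, over 4 sums, with a spread estimated per gene and moderated. The members and gene lists were chosen with earlier results of these data known. The text names the rule genes, markers, called genes of each list, and among called genes that differed the same way in all 4 mice the 10 with the largest rises and the 10 with the largest falls (8 and 8 passed), and says where a gene was chosen after its values were seen. Promoter sequences came from RefSeq (GRCm38.p6).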

Additional observations from a re-analysis of the deposited data

Results flagged for a closer look

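For 6 genes every chow mouse had more in members than in the other C1q-high cells and every HFD mouse less, and the difference between the diets was not tested. Members minus the other C1q-high cells, in CPM for chow 9, chow 11, HFD 1 and HFD 3, came to 24.01, 36.03, -9.655 and -10.11 for Il6 and to 406.5, 249.8, -23.45 and -8.988 for Igf1. It was 31.32, 61.08, -4.138 and -22.47 for Areg, the growth factor amphiregulin, and 86.31, 139.7, -15.17 and -12.36 for Mt2. Adgre1, which encodes F4/80, gave 90.05, 56.71, -99.21 and -16.06, and the chemokine Ccl8 gave 151.2, 321, -315.4 and -574.3. The HFD sums are those of 4 and 2 cells, and 0 UMIs there allow up to 361.5 and 922.5 CPM. Il6, Igf1, Areg and Mt2 had 0 UMIs in the members of both HFD mice. The share of all genes tested with this pattern is not given here.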

How the results depend on the processing

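The 58 genes called became 119 with edgeR's likelihood-ratio test, 194 with library totals in place of TMM, 24 with cells thinned to 2000 UMIs (3 mice), 26 without cells holding UMIs of other types and 189 in the chow mice only. The 50 higher became 172 with library totals, 23 thinned, 14 without cells holding UMIs of other types and 80 in the chow mice only. The 8 lower became 53 (likelihood-ratio test), 13 (DESeq2, beside 36 higher), 22 (library totals), 13 (no detection filter), 13 and 5 (C1q share at least 80 and 160), 2 (at least 3 UMIs), 1 (thinned) and 109 (chow mice only). Leaving out a mouse gave 12 to 52 called, 11 to 46 higher and 1 to 6 lower, lowest without chow 11 in each case. Of 412 fold changes of 28 called genes under the alternatives, 305 passed the test with the same sign, 107 had the same sign without passing and 0 reversed. The share of members in chow 9, chow 11, HFD 1 and HFD 3 was 0.8827%, 2.126%, 0.1289% and 0.08177% after thinning, 3.761%, 7.892%, 0.5176% and 0.1292% with at least 1 UMI, and 1.106%, 2.847%, 0.3106% and 0.0646% with at least 3. The causes were not tested, except that thinning and leaving out enter fewer cells. No paired analysis was possible because chow 9 and 11 and HFD 1 and 3 share no replicate number; this concerns the diets, whereas members and other cells were compared within mice. The diet in members, its difference from the other cells and their alternatives were not run, since the HFD mice held under 20 members in every setting.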
